A study of Mus musculus with 50 samples.

Results

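Hippocampal microglia of mice raised under early-life stress (ELS) were compared between postnatal day 9 (P9), the end of the stress period, and P200, in adulthood. The libraries titled P9 and ELS (13 mice) and those titled P200, ELS and PBS (6 mice) were taken, which gave 19 of the 50 libraries in the series. All 19 mice were male C57BL/6J mice whose dams had limited nesting and bedding material until P9, a condition known to fragment maternal care. Each library held the RNA of 1 mouse, from live cells sorted as CD11b+ with intermediate CD45. The P200 mice had been injected intraperitoneally with phosphate-buffered saline (PBS) as controls for an endotoxin (LPS) treatment. They were bled from the tail and killed a few hours after the injection. Their tissue was freed of myelin on Percoll before sorting. The pups were not injected and their tissue had no Percoll step, so that age, injection and Percoll cannot be told apart. The number before the point in each mouse's name was read as its nest, which the sources do not define. So read, the P9 mice came from 4 nests and the P200 mice from 5 nests, and no mouse was measured at both ages. The same ages in mice reared under standard conditions (CTR), 12 pups at P9 and 7 PBS-injected adults at P200, served to show where the ELS mice differed.

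Microglia are the resident macrophages of the brain. They arise from yolk sac progenitors, enter the brain before birth and multiply there in early postnatal life, when many are amoeboid cells that clear dying neurons, myelin debris and surplus synapses. Over the following weeks they leave the cell cycle, take on a ramified shape and acquire a homeostatic gene programme that depends on TGF-beta and on CSF1 receptor signals. Early-life stress falls in the same period and raises glucocorticoids, the adrenal hormones that bind the glucocorticoid receptor present in microglia.

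Total counts ranged from 5152838 to 36031616 per library at P9 (median 20988125) and from 18257922 to 34990227 at P200 (median 22304746). Mice are numbered here within each group in the order of deposit. The P9 ELS pups 5 and 6, which shared a nest with 1 other pup, stood apart: counts were found for 15731 and 12482 genes, against 18015 to 20093 in the other P9 pups. In a principal component analysis of the 19 libraries, the first component (33.5% of the variance) separated the ages and the second (17.23%) set these 2 pups apart. Among the comparison mice, P200 CTR mouse 1 had counts for 12854 genes. Where leaving out these libraries moved a count by over 1.5 times, the count without them is given beside it. The cells carried the markers of microglia at both ages. Levels are given as CPM, which are counts scaled by the total of each library and its TMM factor. Csf1r, the receptor for CSF1, was at 630.0 to 15452 CPM (median 8336) at P9 and 6581 to 13537 CPM (median 9581) at P200. Cx3cr1, the fractalkine receptor, was at 1073 to 10410 CPM (median 7202) at P9 and 7942 to 11480 CPM (median 9145) at P200. Pup 5 had the lowest value of both, and its levels of Tmem119 (180.0 CPM) and Nrros (67.6 CPM) lay far under those of the other pups (from 1699 and 687 CPM), while its level of P2ry12 was the highest.

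Of 16696 genes tested with edgeR's quasi-likelihood test, 1449 (8.68%) were higher and 2919 (17.5%) were lower at P200 than at P9, with both a Benjamini-Hochberg adjusted p under 0.05 and more than 1 unit of change on the log2 scale. The median log2 fold change of all tested genes was -0.01. In 768 genes (4.6%) every P200 mouse was above every P9 mouse, and in 1173 genes (7.03%) every P200 mouse was below every P9 mouse. Of the 4368 genes called, 3117 were also called in the same direction between the ages in CTR mice. A difference between the age change in ELS mice and that in CTR mice was called for 5 genes (0.0299%), and 1712 genes had an unadjusted p under 0.05 for that difference.

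**Figure D1:**
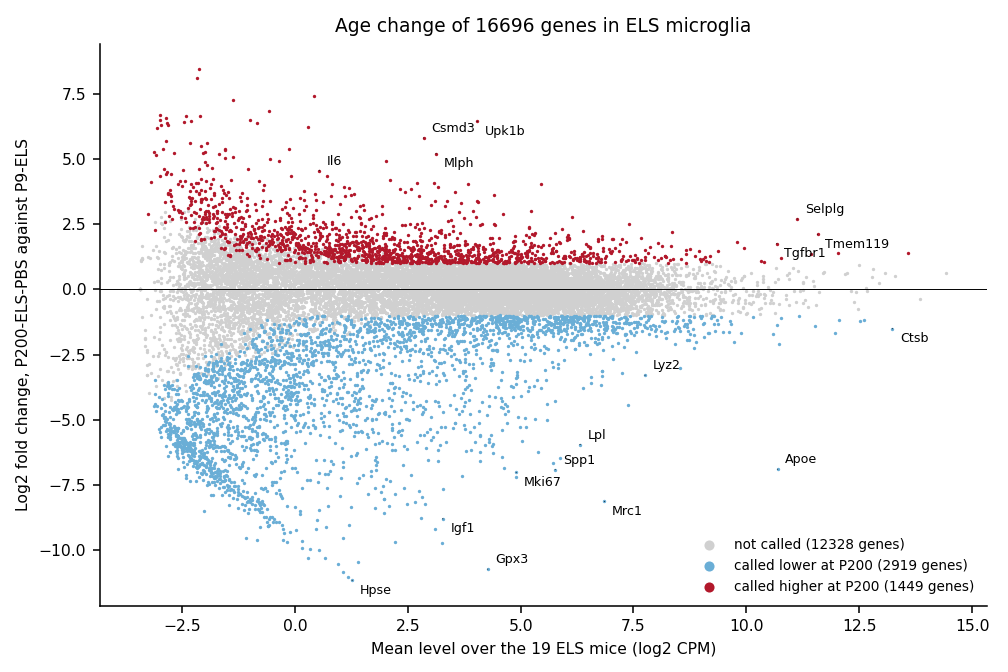
Age change of each tested gene in ELS microglia. The x axis gives the mean log2 CPM over the 19 mice and the y axis the log2 fold change of P200 against P9, with genes called higher or lower in colour; 2919 genes were called lower and 1449 higher.

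Among the genes called higher that had a mean log2 CPM of at least 1 over the 19 mice and no overlap between the ages, Upk1b, Csmd3, Mlph, Tnfsf13b and Jam3 rose most. Upk1b, which encodes the tetraspanin uroplakin 1b (ENSMUSG00000049436, chromosome 16, 38591981 to 38620727, GRCm39), was at 1.44 to 13.8 CPM (median 3.63) at P9 and 329.7 to 505 CPM (median 387) at P200. No P9 mouse overlapped with a P200 mouse, and the log2 fold change was 6.43 ± 0.33 (SE), adjusted p = 3.94e-22 by edgeR's quasi-likelihood test. Tnfsf13b, which encodes the B cell survival factor BAFF, was at 0 to 2.71 CPM (median 1.60) at P9 and 36.4 to 66.7 CPM (median 48.4) at P200 (log2 fold change 4.90 ± 0.29). Mlph, the melanophilin that links vesicles to myosin, rose by a log2 fold change of 5.2 ± 0.29, Csmd3, a large membrane protein with complement control domains, by 5.80 ± 0.36, and Jam3, a junctional adhesion molecule, by 4.17 ± 0.37. Kitl, the ligand of the KIT receptor, was also among the 10 largest increases, at 0 to 9.53 CPM (median 5.22) at P9 and 43.7 to 104 CPM (median 76.3) at P200.

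By the same limits, the strongest decreases included genes with no count in any P200 mouse. Hpse, which encodes heparanase, the enzyme that cuts heparan sulphate (ENSMUSG00000035273, chromosome 5, 100827350 to 100867582), was at 0.507 to 24.1 CPM in the P9 mice and had 0 counts in all 6 P200 mice, at least 651.5-fold lower against a floor of 3 counts over the group. Hrob, a recruiter of the MCM8 and MCM9 helicase, was at least 511.4-fold lower, and Pif1, another DNA helicase, at least 531.8-fold lower. Spag5, a protein of the mitotic spindle, had 5383 counts in the P9 mice together and 1 count in the P200 mice, a 2792-fold difference with a counting interval of 500.9 to 110300. Gpx3, a secreted glutathione peroxidase, was at 38.0 to 261 CPM (median 199) at P9 and 0 to 0.249 CPM (median 0.0705) at P200. Levels in the P200 mice were thus at or near 0 for all of these genes, so that depth limits their ratios.

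Of the called genes with a mean log2 CPM of at least 7 over the 19 mice, Apoe, the lipid carrier that microglia secrete, changed most. Apoe (ENSMUSG00000002985, chromosome 7, 19430034 to 19434947) was at 3427 to 12087 CPM (median 7207) at P9 and 41.7 to 102 CPM (median 58.7) at P200. Every P200 mouse was below every P9 mouse (log2 fold change -6.89 ± 0.35 (SE), adjusted p = 2.85e-22). Stmn1, which destabilises microtubules, fell (log2 fold change -4.44 ± 0.18), as did Lyz2, the macrophage lysozyme (-3.29 ± 0.25), and Rbm3, an RNA-binding protein induced by cold (-3.21 ± 0.21). In the other direction, Selplg, the P-selectin ligand, was at 443 to 1894 CPM (median 1329) at P9 and 7488 to 9005 CPM (median 8290) at P200. The log2 fold change of Selplg was 2.69 ± 0.13, that of Cd34, a sialomucin, 2.52 ± 0.12, and that of Pmp22, a membrane protein of peripheral myelin that other cells also make, 1.98 ± 0.10. The plot of gene lists shows how these changes were spread over functional groups.

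**Figure D2:**
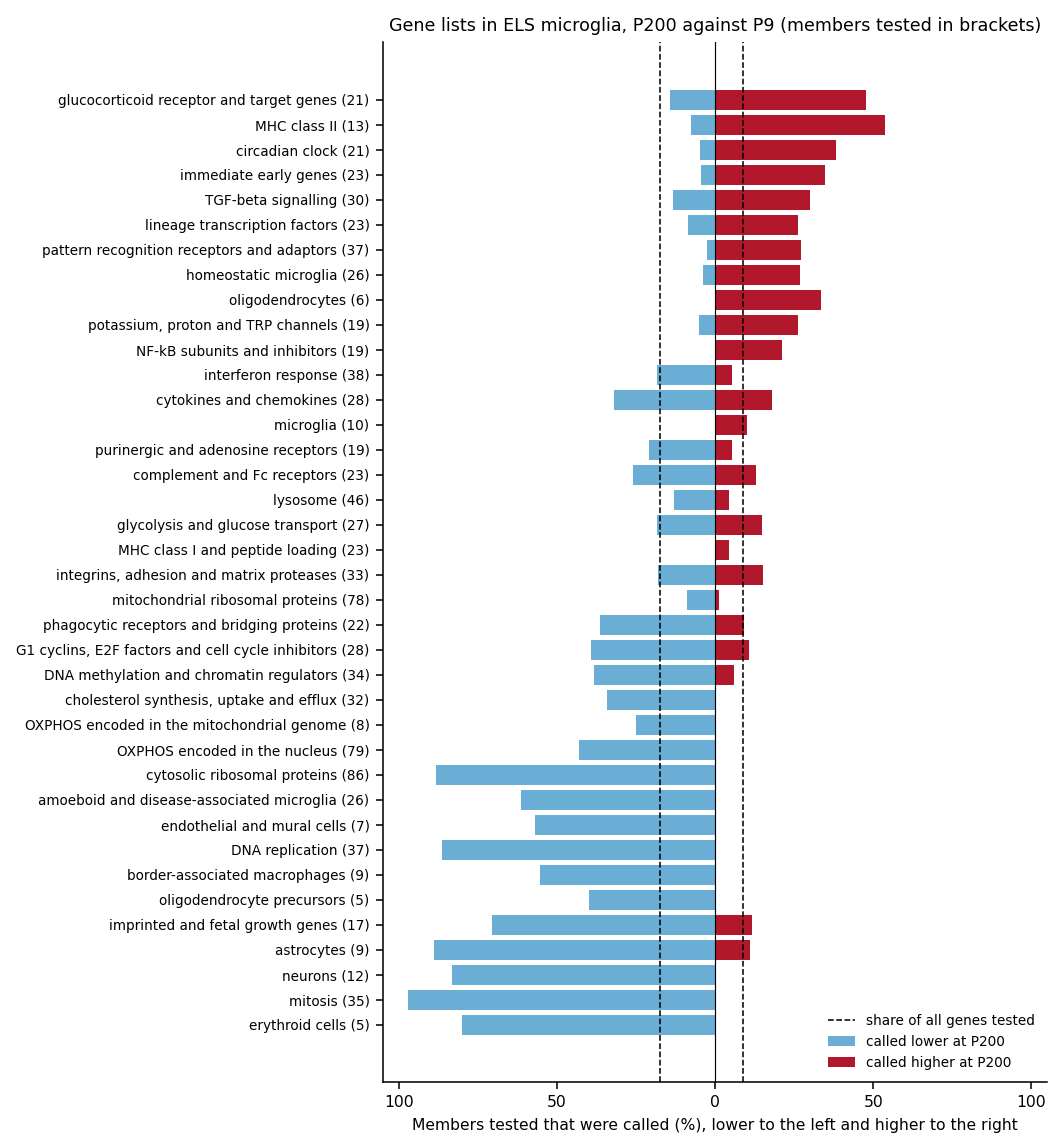
Share of tested genes called in each gene list. Bars give the percentage of the tested members of a list called higher (to the right) or lower (to the left) at P200 than at P9 in ELS mice; all 34 calls of the mitosis list were lower and 10 of 21 genes of the glucocorticoid list were higher.

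Genes of cell division fell almost without exception. Of 35 mitosis genes, 34 fell and none rose, with a median log2 fold change of -5.60 (-5.41 in CTR mice, where 34 were lower). Mki67, the proliferation antigen Ki-67, was at 84.8 to 353 CPM (median 128) at P9 and 0.163 to 3.02 CPM (median 1.15) at P200 (log2 fold change -7.01 ± 0.80 (SE), adjusted p = 3.72e-10 by edgeR's quasi-likelihood test). Top2a, the topoisomerase that untangles replicated chromosomes, was at 197 to 640.4 CPM (median 224) at P9 and 0.0543 to 6.26 CPM (median 2.61) at P200. Cdk1, the kinase that starts mitosis, was at 91.6 to 276 CPM (median 111) at P9 and 1.78 to 5.03 CPM (median 4.31) at P200, and its partner cyclin Ccnb1 at 100.4 to 323 CPM (median 163) at P9 and 1.32 to 3.50 CPM (median 1.93) at P200. For all 34 genes that fell, every P200 mouse was below every P9 mouse. Cenpe, a kinesin of the kinetochore, was at 21.0 to 186 CPM at P9 and 0 to 1.29 CPM at P200, the largest decrease of the list. The remaining gene, Espl1 (separase, which opens the cohesin ring), was at 0.608 to 42.2 CPM (median 15.5) at P9 and 14.2 to 35.3 CPM (median 29.4) at P200 and was not called (log2 fold change 0.55 ± 0.34).

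Since these genes fell together, their promoters are shown. Many G2/M genes are known to be controlled through CCAAT boxes, bound by NF-Y, and through the cell cycle homology region (CHR), bound by the DREAM complex. The 4 sequences below run from 250 bases before to 50 bases after the start of each gene in RefSeq (build GRCm38.p6) and lie on the minus strand, at chr7:135716330-135716629 for Mki67, chr11:99024140-99024439 for Top2a, chr10:69352863-69353162 for Cdk1 and chr13:100786437-100786736 for Ccnb1. Capitals mark matches to CCAAT and to the CHR letters TTTGAA on either strand.
Mki67: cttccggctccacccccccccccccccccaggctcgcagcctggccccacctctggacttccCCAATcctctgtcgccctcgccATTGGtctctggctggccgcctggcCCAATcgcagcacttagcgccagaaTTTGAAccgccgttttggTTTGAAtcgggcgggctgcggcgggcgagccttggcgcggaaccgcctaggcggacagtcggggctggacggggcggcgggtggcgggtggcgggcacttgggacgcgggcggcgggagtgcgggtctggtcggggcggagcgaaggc
Top2a: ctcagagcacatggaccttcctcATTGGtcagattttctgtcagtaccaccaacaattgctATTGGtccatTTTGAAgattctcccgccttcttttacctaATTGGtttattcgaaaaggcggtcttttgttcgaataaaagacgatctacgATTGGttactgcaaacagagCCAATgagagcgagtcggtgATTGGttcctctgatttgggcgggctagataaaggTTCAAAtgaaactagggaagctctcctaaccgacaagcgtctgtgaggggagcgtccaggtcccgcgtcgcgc
Cdk1: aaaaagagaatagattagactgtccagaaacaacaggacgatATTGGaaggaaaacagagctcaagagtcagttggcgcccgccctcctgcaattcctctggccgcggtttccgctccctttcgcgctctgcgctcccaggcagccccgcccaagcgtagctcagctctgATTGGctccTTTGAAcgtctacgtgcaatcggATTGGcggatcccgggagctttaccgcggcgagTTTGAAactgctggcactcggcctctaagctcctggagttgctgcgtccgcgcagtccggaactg
Ccnb1: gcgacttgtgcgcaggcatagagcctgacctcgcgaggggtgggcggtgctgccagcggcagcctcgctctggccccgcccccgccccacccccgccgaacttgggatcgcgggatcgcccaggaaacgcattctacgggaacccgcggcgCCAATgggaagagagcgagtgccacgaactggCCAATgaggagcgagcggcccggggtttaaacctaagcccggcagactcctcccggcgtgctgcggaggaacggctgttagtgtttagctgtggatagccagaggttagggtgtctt

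The Mki67, Top2a and Cdk1 promoters each held 2 CHR matches, with 3, 6 and 3 CCAAT matches, and the Ccnb1 window held 2 CCAAT matches and no CHR match. Matches of the 2 motifs may abut or share 1 base. Of 31 promoters found for the mitosis list (29 of the 35 genes), 24 (77.42%) held a CHR match, 25 (80.65%) a CCAAT match and 22 (70.97%) both. Among all 32851 RefSeq promoters of this length, the shares were 17.89%, 37.41% and 6.953%. Among the 14420 promoters of the genes tested they were 12.5%, 37.73% and 5.083%, for genes called lower at P200 14.86%, 40.52% and 7.678%, and for those called higher 11.5%, 36.15% and 4.878%. These are shares of letter matches and were not tested.

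DNA replication genes fell less steeply and almost as often: 32 of 37 fell, none rose, with a median of -2.34 on the log2 scale (-2.28 for CTR mice). Mcm5, a subunit of the replicative helicase, was at 22.5 to 162 CPM (median 144) at P9 and 2.49 to 9.61 CPM (median 6.76) at P200, and Cdc45, which activates that helicase, at 6.54 to 18.0 CPM (median 14.1) at P9 and 0 to 2.48 CPM (median 0.577) at P200. Rrm2, the inducible subunit of ribonucleotide reductase, was at 144 to 426 CPM (median 247) at P9 and 0.326 to 5.74 CPM (median 2.71) at P200. Pcna, the sliding clamp of the polymerases, kept a measurable level at P200, at 26.0 to 39.8 CPM against 119.7 to 316 CPM at P9 (log2 fold change -2.13 ± 0.17). Among the 5 members not called was Rfc2, a subunit of the clamp loader (log2 fold change -0.32 ± 0.14). In DNA replication promoters the CHR share was 12.12% and the CCAAT share 54.55%, of 33 promoters.

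Of 28 regulators of the G1 phase, 3 were higher (10.7%, against 8.68% of all genes) and 11 lower (39.3%, against 17.5%). The first share was near that of all genes. Ccne1, cyclin E1, which drives entry into S phase, was at 5.82 to 27.6 CPM (median 13.3) at P9 and 0 to 0.31 CPM (median 0.0379) at P200. E2f8, a repressor among the E2F factors, was at 3.29 to 32.8 CPM (median 20.21) at P9 and 0 to 1.14 CPM (median 0.243) at P200. The cyclin-dependent kinase inhibitors split: Cdkn1a (p21) was at 76.7 to 138 CPM (median 117) at P9 and 8.08 to 17.4 CPM (median 14.7) at P200 and fell (log2 fold change -3.03 ± 0.19), while Cdkn1c (p57) was at 0 to 1.22 CPM (median 0.23) at P9 and 0.91 to 2.39 CPM (median 1.56) at P200 and rose (2.26 ± 0.53). Ccnd1, cyclin D1, was at 78.3 to 328 CPM (median 227) at P9 and 156 to 229 CPM (median 198) at P200 and was not called. Cdk6 was called lower at -1.02, which lies at the threshold, and lost the call without P9 mice 5 (-0.93) or 13 (-0.96) or P200 mouse 6 (-0.93).

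Of 34 genes of DNA methylation and chromatin, 13 fell (38.2%, against 17.5% of all genes) and 2 rose (5.88%, against 8.68%). Without P9 mice 5 and 6, 1 rose. Dnmt1, the maintenance DNA methyltransferase, was at 28.1 to 145 CPM (median 73.3) at P9 and 9.34 to 26.0 CPM (median 13.8) at P200, and Uhrf1, which brings it to hemimethylated DNA, at 7.75 to 101 CPM (median 71.5) at P9 and 0 to 4.45 CPM (median 1.62) at P200. Ezh2, the catalytic subunit of Polycomb complex PRC2, fell (-4.29 ± 0.51) while its paralogue Ezh1 rose (1.40 ± 0.24). Ezh2 was at 8.60 to 87.3 CPM at P9 and 0.463 to 1.72 CPM at P200, and Ezh1 at 2.63 to 40.9 CPM and 61.6 to 98.7 CPM. Of the high mobility group proteins, which bend or loosen chromatin, Hmgb2 (-3.59 ± 0.14) and Hmgn2 (-3.02 ± 0.25) fell, and Hmgb3 fell from a range of 19.6 to 64.5 CPM at P9 to 0 to 0.103 CPM at P200. Lmnb1, which encodes lamin B1 of the nuclear envelope, fell (log2 fold change -3.11 ± 0.35).

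Of 26 homeostatic microglia genes, 7 rose (26.9%, against 8.68% of all genes) and 1 fell (3.85%, against 17.5%). Their median log2 fold change was 0.57 (0.56 in CTR mice). Tmem119, a membrane protein used as a marker of adult microglia (ENSMUSG00000054675, chromosome 5, 113931781 to 113938577), was at 180.0 to 2663 CPM (median 2260) at P9 and 7533 to 9940 CPM (median 9153) at P200. The log2 fold change was 2.1 ± 0.20 (SE), adjusted p = 2.2e-12, and no P9 mouse reached the lowest P200 mouse. Without pups 5 and 6 it was 2.02. Slc2a5, the fructose transporter, was at 111 to 816 CPM (median 672) at P9 and 2017 to 2330 CPM (median 2273) at P200, and Mertk, a receptor for dying cells, at 113 to 311 CPM (median 160.0) at P9 and 306 to 505 CPM (median 402) at P200. P2ry12, the ADP receptor that steers microglial processes, was at 4321 to 20369 CPM (median 9180) at P9 and 10471 to 14698 CPM (median 13763) at P200 and did not pass the threshold on fold change (0.52 ± 0.14 (SE), adjusted p = 0.00292). Sall1, a transcription factor of microglial identity, and Siglech, a sialic acid-binding lectin, were also not called, at 0.64 ± 0.14 and -0.17 ± 0.15. Crybb1, a crystallin known as a marker of young microglia, fell from a range of 483 to 1196 CPM at P9 to 334 to 403 CPM at P200.

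Of 23 lineage transcription factors, 6 rose (26.1%, against 8.68% of all genes) and 2 fell (8.70%, against 17.5%). Spi1, which encodes PU.1, the factor of all myeloid cells, was at 85.4 to 400.3 CPM (median 302) at P9 and 255 to 413 CPM (median 381) at P200 and was not called, nor was Mef2c (-0.03 ± 0.09). Irf8 (0.99 ± 0.15) and Runx1 (0.98 ± 0.17) lay just under the threshold, and passed it without P9 mouse 1 (1.02 for Irf8 and 1.06 for Runx1), as Irf8 did without 7 other mice of the 19 and Runx1 without P9 mouse 12 (1.01). Mycn, a MYC family factor of proliferating cells, had 262 counts over the P9 mice and 2 over the P200 mice, a 67.95-fold difference with a counting interval of 18.62 to 564. Nr1h3, the liver X receptor alpha that controls cholesterol efflux, was at 0 to 1.71 CPM (median 0.519) at P9 and 0.161 to 2.88 CPM (median 1.42) at P200 and was not called.

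In TGF-beta signalling, 9 of 30 genes rose (30.0%, against 8.68% of all genes) and 4 fell (13.3%, against 17.5%). The type I receptor Tgfbr1 was at 403 to 1530 CPM (median 1264) at P9 and 3011 to 5092 CPM (median 4026) at P200 (log2 fold change 1.75 ± 0.21 (SE), adjusted p = 1.89e-09). The ligand Tgfb1 was at 4.60 to 8.80 CPM (median 6.89) at P9 and 10.5 to 15.3 CPM (median 13.8) at P200, at the threshold and not called (1.00 ± 0.28), and without 1 of 10 of the 19 mice it passed, at 1.00 to 1.06. Among the pathway's targets and inhibitors, Smad7, the inhibitory SMAD, rose by a log2 fold change of 1.71 ± 0.20, and Pmepa1, which retains receptor-activated SMADs, by 1.45 ± 0.23. Itgb8, the integrin chain that releases latent TGF-beta, had 301 counts over the P9 mice and 3 over the P200 mice, 52.04-fold lower (counting interval 17.64 to 253.8). Nrros, which anchors latent TGF-beta on microglia, was at 67.6 to 1001 CPM (median 884) at P9 and 714 to 1269 CPM (median 884) at P200 and was not called.

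**Figure D3:**
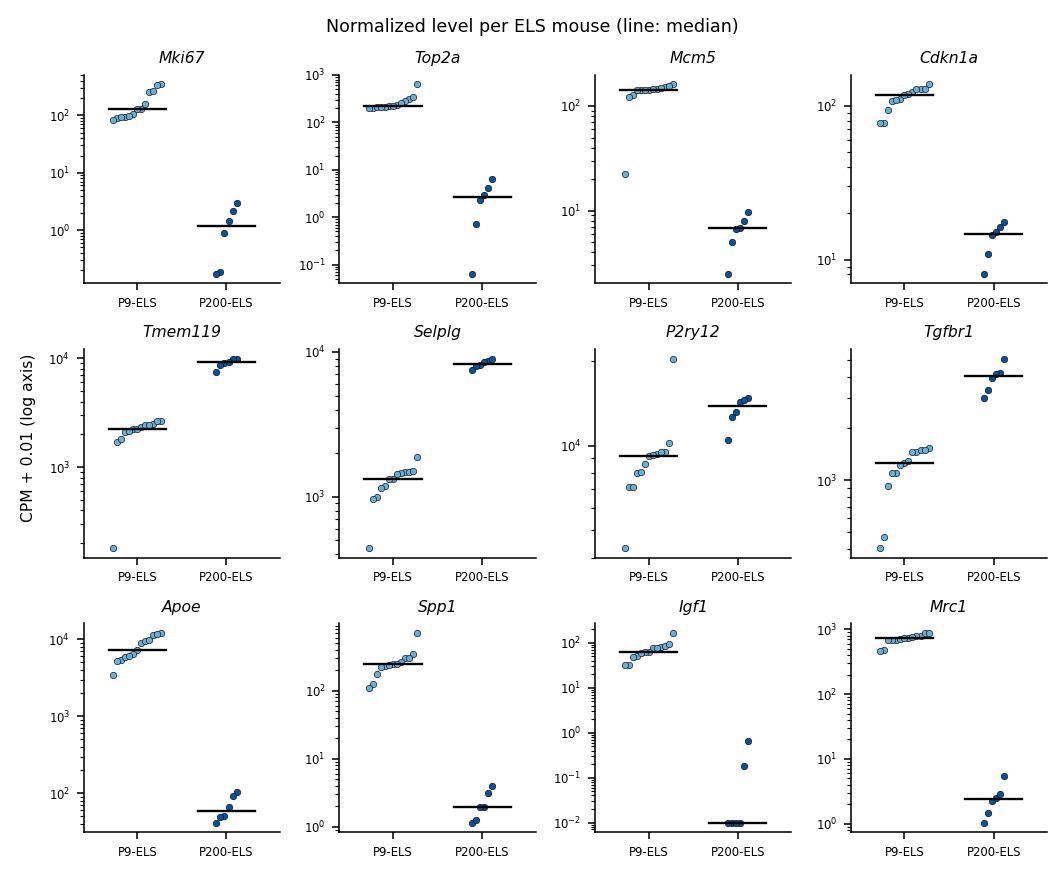
CPM of single genes in each of the 19 ELS mice. Each panel is a gene, each point a mouse (13 at P9, 6 at P200), lines mark group medians and the y axes are logarithmic; the P9 and P200 points of Apoe and of Tmem119 do not overlap.

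The genes of amoeboid and disease-associated microglia moved the other way: 16 of 26 fell (61.5%, against 17.5% of all genes) and none rose (against 8.68%). Their median was -1.44 on the log2 scale (-1.22 for CTR mice). Spp1, the secreted phosphoprotein osteopontin, was at 108 to 709 CPM (median 244) at P9 and 1.14 to 4.00 CPM (median 1.91) at P200. Igf1, a growth factor for neurons and oligodendrocytes, was at 31.5 to 166 CPM (median 63.4) at P9 and 0 to 0.641 CPM (median 0) at P200 (log2 fold change -8.78 ± 0.60 (SE), adjusted p = 3.82e-17). Fabp5, a fatty acid carrier, was at 8.52 to 34.2 CPM (median 12.2) at P9 and 0 to 0.427 CPM (median 0.137) at P200, and Lpl, which hydrolyses triglycerides, fell (log2 fold change -5.94 ± 0.40). Levels of Spp1, Igf1, Lpl and Fabp5 thus dropped to a few CPM or less at P200. Ctsd, the aspartic protease of the lysosome, was not called (0.64 ± 0.19). Lgals1, a galectin (-2.84 ± 0.36), and Axl, a receptor tyrosine kinase that binds dying cells (-2.89 ± 0.63), also fell.

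Of 46 lysosomal genes 2 (4.35%) rose and 6 (13.0%) fell, with a median log2 fold change of -0.17. Both shares were under those of all genes (8.68% and 17.5%), and the number that rose was 1 without P9 mice 5 and 6 together, and 1 without P9 mouse 1, 5, 7 or 11 or P200 mouse 1 or 6. Ctsb, the protease cathepsin B, was at 9621 to 16829 CPM (median 13282) at P9 and 3573 to 5210 CPM (median 4943) at P200 and fell (-1.51 ± 0.11), as did Lamp1, a protein of the lysosomal membrane (-1.20 ± 0.25). Ctsh, another cathepsin, rose from a range of 365 to 525 CPM at P9 to 822 to 1057 CPM at P200. Ctss, the protease that trims the invariant chain, was at 0.78 ± 0.14 and Grn, progranulin, at -0.58 ± 0.20, both under the threshold. Atp6v0d2, a subunit of the proton pump, had 189 counts at P9 and 0 at P200, at least 32.68-fold lower.

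Of 32 genes of cholesterol synthesis, uptake and efflux, 11 fell (34.4%, against 17.5% of all genes) and none rose (against 8.68%). Their median log2 fold change was -0.75 (-0.84 in CTR mice). Sqle, which makes squalene epoxide, was at 20.8 to 51.8 CPM (median 36.1) at P9 and 0.76 to 2.43 CPM (median 0.989) at P200 (log2 fold change -4.76 ± 0.48 (SE), adjusted p = 8.1e-12). The efflux transporters Abca1 (-0.59 ± 0.13) and Abcg1 (-0.12 ± 0.20) and the regulator Srebf2 (-0.63 ± 0.36) were not called.

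Of 23 complement and Fc receptor genes, 3 were higher (13.0%, against 8.68% of all genes) and 6 lower (26.1%, against 17.5%). C1qa, a chain of the C1q recognition protein, was at 541 to 4047 CPM (median 2920) at P9 and 2927 to 4214 CPM (median 3534) at P200 and was not called. C3, the central complement protein, had 970 counts over the P9 mice and 0 over the P200 mice, at least 167.7-fold lower. C5ar1, a receptor for the anaphylatoxin C5a, rose from a range of 62.6 to 199 CPM at P9 to 438 to 588 CPM at P200 (log2 fold change 1.64 ± 0.15). Itgam, the CD11b chain of complement receptor 3 on which the cells were sorted, was not called (0.08 ± 0.15). The Fc receptors Fcgr1 (0.56 ± 0.09) and Fcgr4 (-0.91 ± 0.26) were under the threshold, which Fcgr4 passed without P200 mouse 6 (-1.08).

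Among 22 phagocytic receptors and bridging proteins, 2 rose (9.09%, against 8.68% of all genes) and 8 fell (36.4%, against 17.5%). The first share was near that of all genes. Gas6, which bridges phosphatidylserine on dying cells to MERTK and AXL, was at 167 to 1166 CPM (median 715) at P9 and 88.6 to 238 CPM (median 193) at P200 (log2 fold change -1.95 ± 0.27 (SE), adjusted p = 6.13e-08). Pros1, the other bridging protein of these receptors, was not called (0.17 ± 0.13). Colec12, a scavenger receptor with a C-type lectin domain, was at 0 to 8.88 CPM (median 1.72) at P9 and 0 to 0.161 CPM (median 0) at P200. The receptors Lrp1 (-0.50 ± 0.24), Msr1 (-0.63 ± 0.53) and Stab1 (0.16 ± 0.18) were not called, while Mertk rose, as given above, and Axl fell.

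Antigen presentation genes are given by class. Of 23 class I genes 1 rose (4.35%, against 8.68% of all genes) and none fell (against 17.5%). Class I heavy chains come from near-identical genes whose reads may be split, so these values are uncertain: H2-K1 was at 0.03 ± 0.16, H2-D1 at -0.36 ± 0.21 and H2-T23, the one called, at 1.27 ± 0.17. B2m, the invariant light chain, was at 2049 to 5230 CPM (median 2643) at P9 and 1760 to 2260 CPM (median 1946) at P200 and was not called. Of 13 class II genes 7 rose (53.8%, against 8.68% of all genes) and 1 fell (7.69%, against 17.5%). H2-Aa, a class II alpha chain, was at 0 to 0.325 CPM (median 0) at P9 and 0.192 to 1.29 CPM (median 0.666) at P200 (log2 fold change 4.14 ± 0.96 (SE), adjusted p = 0.000404), H2-Eb1, a class II beta chain, at 0 to 0.561 CPM (median 0.0848) at P9 and 0.0543 to 3.02 CPM (median 0.69) at P200 and Cd74, the invariant chain that guides class II molecules, at 37.6 to 162 CPM (median 79.6) at P9 and 20.07 to 32.2 CPM (median 31.0) at P200. The first pair rose and Cd74 fell.

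Of 37 pattern recognition receptors and adaptors, 10 rose (27.0%, against 8.68% of all genes) and 1 fell (2.70%, against 17.5%). None of them fell when any 1 of 7 mice was left out. Their median change was 0.57 on the log2 scale (0.40 for CTR mice). Cd14, the co-receptor for LPS, was at 263 to 602 CPM (median 341) at P9 and 898 to 1109 CPM (median 1007) at P200 (log2 fold change 1.48 ± 0.16 (SE), adjusted p = 3.82e-11). Tlr3, which binds double-stranded RNA, rose by 2.1 ± 0.13, Irak3, a kinase that dampens Toll-like receptor signals, by 2.05 ± 0.41, and Sting1, the adaptor for cytosolic DNA, by 1.49 ± 0.10. Tlr2, a receptor for bacterial lipoproteins, was at 80.9 to 339 CPM (median 299) at P9 and 181 to 237 CPM (median 202) at P200 and was not called. The LPS receptor Tlr4 was called at 1.02, at the threshold, and fell under it without P9 mice 4 (1.00), 5 (0.93) or 6 (0.95) or P200 mice 2 (0.98) or 6 (0.91). Tlr11 had 0 counts at P9 and 31 over the P200 mice, at least 19.92-fold higher.

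Of 28 cytokine and chemokine genes 5 rose (17.9%, against 8.68% of all genes) and 9 fell (32.1%, against 17.5%). Without P9 mice 5 and 6, 6 fell. Il6, the cytokine interleukin-6, was at 0 to 4.86 CPM (median 0.574) at P9 and 15.12 to 25.8 CPM (median 18.23) at P200. Every P200 mouse was above every P9 mouse, and the log2 fold change was 4.55 ± 0.54 (SE), adjusted p = 1.15e-09; in CTR mice it was 5.17. Il1a, an alarm cytokine, rose by 1.16 ± 0.23, while Tnf (0.83 ± 0.47) and Il1b (0.87 ± 0.59) were not called. Ccl4, a chemokine of the CC class, was at 12.9 to 41.8 CPM (median 23.6) at P9 and 25.1 to 258 CPM (median 126) at P200 (log2 fold change 2.41 ± 0.29), and Ccl3, its neighbour, at 30.6 to 107 CPM (median 42.0) at P9 and 8.29 to 125 CPM (median 58.8) at P200 (not called). Cxcl14, a homeostatic chemokine, fell from a range of 0 to 7.17 CPM at P9 to 0 to 0.161 CPM at P200, and Cxcl16, a membrane-bound chemokine, rose by 1.28 ± 0.17. Ccl2 was called lower at -1.33 and fell under the threshold without P9 mouse 5 (-0.93).

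Within NF-kB, 4 of 19 genes rose (21.1%, against 8.68% of all genes) and none fell (against 17.5%). The number that rose in this list was 2 without P200 mouse 2, and 2 without P9 mice 5 and 6. Nfkbie, an inhibitor of the pathway, rose by a log2 fold change of 1.27 ± 0.21. Nfkbia, the main feedback inhibitor, was called at 1.13 and stood at 0.89, under the threshold, without P200 mouse 2. Ikbke, an inducible kinase of the pathway, was at 0 to 13.6 CPM (median 0.0576) at P9 and 0 to 0.605 CPM (median 0.304) at P200 and did not pass the test (adjusted p = 0.213). In the interferon response 2 of 38 genes rose (5.26%, against 8.68% of all genes) and 7 (18.4%, against 17.5%) fell. The number that rose was 5 without P9 mouse 5 and 4 without P9 mice 5 and 6. In CTR mice 8 rose and 4 fell. The unadjusted p of the difference from CTR mice was under 0.05 for 10 of 38 (26.3%, against 10.3% of all genes). That count was 3 (7.9%, against 8.85%) without P9 mice 5 and 6 and P200 CTR mouse 1 together, and none was called. Ifitm3, which blocks viral entry, was at 5.22 to 33.3 CPM (median 8.3) at P9 and 1.52 to 8.01 CPM (median 3.60) at P200 and fell (-1.47 ± 0.37), as did its neighbour Ifitm2 (-5.0 ± 0.49). Irf7 (-0.15 ± 0.46) and Isg15 (0.09 ± 0.33) were not called.

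Receptors for nucleotides and adenosine were mostly uncalled. Of 19, 1 was higher (5.26%, against 8.68% of all genes) and 4 lower (21.1%, against 17.5%). None was higher without P9 mouse 5. P2rx4 (0.50 ± 0.10), P2rx7 (0.18 ± 0.14) and Adora3 (0.47 ± 0.10), receptors for ATP and adenosine, were not called. P2ry14, the receptor for UDP-glucose, had 167 counts at P9 and 0 at P200, at least 28.87-fold lower. Of 19 potassium, proton and TRP channels 5 rose (26.3%, against 8.68% of all genes) and 1 fell (5.26%, against 17.5%). None of these channels fell without P9 mouse 5 or P200 mouse 5. Trpm2, a calcium channel opened by oxidative stress, was at 0.355 to 6.86 CPM (median 2.42) at P9 and 16.0 to 62.0 CPM (median 34.1) at P200 (log2 fold change 3.85 ± 0.46 (SE), adjusted p = 1.55e-09). Kcnk13, the potassium channel THIK-1 that sets the resting potential of microglia, was at 59.5 to 241 CPM (median 171) at P9 and 179.5 to 232 CPM (median 207) at P200 and was not called.

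Of 33 integrins, adhesion molecules and matrix proteases 5 (15.15%, against 8.68% of all genes) rose and 6 (18.18%, against 17.5%) fell, the second share being near that of all genes. Jam2, like Jam3 a junctional adhesion molecule, was at 30.6 to 56.9 CPM (median 38.9) at P9 and 162 to 188 CPM (median 172) at P200 (log2 fold change 2.02 ± 0.11), and Mmp14, a membrane-bound metalloprotease, rose by 1.99 ± 0.38. Timp3, an inhibitor of such proteases, had 1524 counts over the P9 mice and 0 over the P200 mice, at least 263.5-fold lower. Fn1, fibronectin, had 248 and 2 counts, 64.32-fold lower (counting interval 17.62 to 534). Itgal, the alpha chain of LFA-1, was at 0.608 to 23.3 CPM (median 5.87) at P9 and 0 to 1.5 CPM (median 0) at P200.

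Genes of protein synthesis were lower at P200. Of 86 cytosolic ribosomal protein genes 76 fell and none rose, with a median log2 fold change of -1.40. Rpsa was at 162 to 423 CPM (median 256) at P9 and 43.9 to 86.6 CPM (median 52.9) at P200 (log2 fold change -2.20 ± 0.18 (SE), adjusted p = 2.05e-14), Rpl3 at -1.34 ± 0.13 and Rps27a at -1.61 ± 0.16. Ribosomal protein genes have many near-identical pseudogene copies, so that uniquely counted reads leave their levels uncertain. These genes took 2.00% to 3.66% of counts in the P9 mice and 0.900% to 1.21% in the P200 mice. The highest shares at P9 were those of mice 6, 8 and 5, and mice 5 and 6 had the fewest genes. Without mice 5 and 6, 69 of 86 fell.

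For ribosomal protein genes the age change was also set against that of CTR mice. Their median log2 fold change was -0.86 in CTR mice, where 22 were lower. The unadjusted p of the difference was under 0.05 in 71 of 86, against 10.254% of all genes, and none passed after adjustment. That count was 36 (41.9%, against 7.65% of all genes) without P200 CTR mouse 1. That mouse had 12854 genes detected, with 1.94% of counts in ribosomal protein genes against 0.987% to 1.22% in the other P200 CTR mice. The count was 58 (67.4%, against 11.0%) without P9 mice 5 and 6, and 16 (18.6%, against 8.85%) without all 3. The count of genes lower in CTR mice was 45 without P200 CTR mouse 1. These counts thus moved with 3 libraries of low gene detection.

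**Figure D4:**
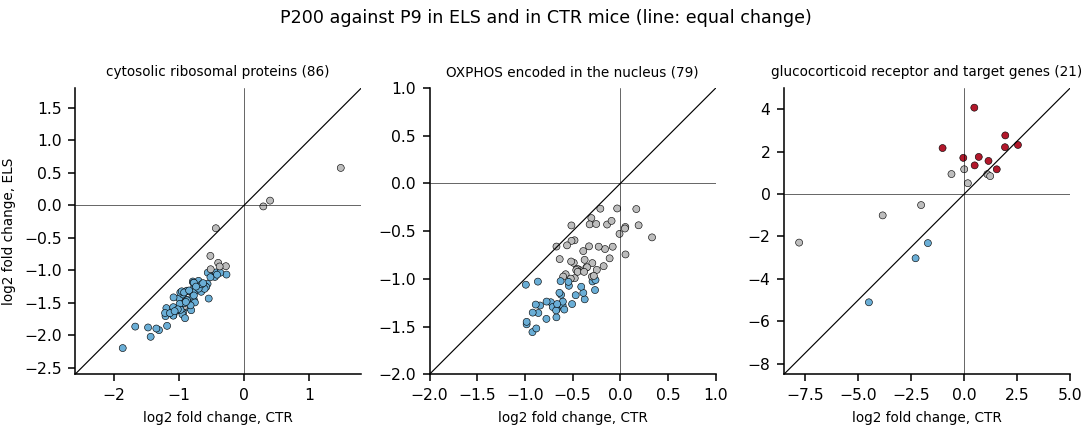
Age change in ELS mice against that in CTR mice, for members of selected gene lists. The panels hold the cytosolic ribosomal protein genes, the nuclear oxidative phosphorylation genes, and the glucocorticoid receptor and its targets. Both axes give the log2 fold change of P200 against P9, and each point is a tested gene. Colours give the call in ELS mice (lower, not called or higher), and the line marks equal change. The median of the ribosomal protein genes was -1.40 in ELS and -0.86 in CTR mice.

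Of 79 nuclear genes for oxidative phosphorylation 34 fell (43.0%, against 17.5% of all genes) and none rose (against 8.68%). Their median log2 fold change was -0.95 (-0.47 in CTR mice). The number that fell was 19 without P9 mouse 5 and 17 without P9 mice 5 and 6. Cox6c, a subunit of cytochrome c oxidase, was at 49.1 to 269 CPM (median 86.3) at P9 and 23.0 to 36.0 CPM (median 34.0) at P200 (log2 fold change -1.56 ± 0.23 (SE), adjusted p = 2.2e-07), Cox4i1 at -1.24 ± 0.14 and Ndufa4 at -1.33 ± 0.23. The difference from CTR mice had an unadjusted p under 0.05 for 41 of 79 genes (51.9%, against 10.3% of all genes). That count was 8 (10.1%, against 7.65%) without P200 CTR mouse 1, and 25 (31.6%, against 11.0%) without P9 mice 5 and 6. Without all 3 it was 5 (6.33%, against 8.85% of all genes). Of 8 genes encoded in the mitochondrial genome 2 fell (25.0%, against 17.5% of all genes), a count that ranged from 1 to 5 with single mice left out. mt-Co1, a subunit of the same oxidase, was at 706 to 2691 CPM (median 1826) at P9 and 746 to 1024 CPM (median 785) at P200 (-0.94 ± 0.18, not called, and -1.01 without P9 mouse 6). Of 78 mitochondrial ribosomal protein genes 7 fell (8.97%, against 17.5% of all genes) and 1 rose (1.28%, against 8.68%). Without P9 mice 5 and 6, 1 fell and none rose.

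In glycolysis and glucose transport, 4 of 27 genes (14.8%, against 8.68% of all genes) rose and 5 (18.5%, against 17.5%) fell, the second share being near that of all genes. Pkm, pyruvate kinase, was at 60.3 to 766 CPM (median 635) at P9 and 226 to 303 CPM (median 267) at P200 and fell (-1.20 ± 0.22). Aldoc, an aldolase that astrocytes make in large amounts, was at 18.5 to 61.7 CPM (median 32.8) at P9 and 0.272 to 4.81 CPM (median 2.51) at P200. Slc2a1, the main glucose transporter (0.85 ± 0.27), Hk2, hexokinase 2 (0.43 ± 0.17), and Ldha, lactate dehydrogenase (-0.92 ± 0.13), were under the threshold.

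Of 21 tested genes for the glucocorticoid receptor and its known targets, 10 rose, where 8.68% of all genes did, and 3 fell, with a median log2 fold change of 1.17 (0.17 in CTR mice, where 7 rose and 6 fell). Without P200 mouse 2, 8 rose and 4 fell and the median was 1.00. Of the 21 genes, 9 (42.9%, against 10.3% of all genes) had an unadjusted p under 0.05 for the difference from CTR mice. Without mouse 2, 5 had one (23.8%, against 8.56% of all genes). Nr3c1, the receptor itself, was at 15.4 to 216 CPM (median 62.4) at P9 and 111 to 224 CPM (median 150.0) at P200 (log2 fold change 1.17 ± 0.23 (SE), adjusted p = 3.36e-05). Tsc22d3, which encodes the anti-inflammatory protein GILZ, was at 130 CPM in mouse 1, 716 in mouse 2, 339 in mouse 3, 118 in mouse 4, 121 in mouse 5 and 301 in mouse 6 at P200, and at 26.0 to 63.6 CPM at P9. Every P200 mouse was above every pup, and mouse 2 was far above the rest (log2 fold change 2.76 ± 0.21, 2.25 without mouse 2).

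Fkbp5, a co-chaperone that lowers the affinity of the receptor, was at 6.03 to 59.2 CPM (median 38.3) at P9 and 63.1 to 176 CPM (median 66.4) at P200 (log2 fold change 1.35 ± 0.21 (SE), adjusted p = 6.41e-07), and at 1.08 without mouse 2. Sgk1, a kinase induced by glucocorticoids, was at 118 to 319 CPM (median 204) at P9 and 749 to 1182 CPM (median 955) at P200 (log2 fold change 2.21 ± 0.16). Per1, a clock gene that the receptor also induces, was at 0.679 to 17.21 CPM (median 3.63) at P9 and 2.61 to 38.5 CPM (median 10.5) at P200, and its call (adjusted p = 0.00267) was lost without mouse 2 (log2 fold change 1.17, adjusted p = 0.0554). Zbtb16, the zinc finger protein PLZF, was called higher (2.17) although its median was lower at P200, with 0 to 1.27 CPM (median 0.198) at P9 and 0 to 8.68 CPM (median 0.0381) at P200. Without mouse 2, at 8.68 CPM, the log2 fold change of Zbtb16 was 0.22 (adjusted p = 0.88). Its call was also lost without P200 mouse 6 (2.09, adjusted p = 0.0611) or P9 mice 3, 8 or 11 (2.06 to 2.08, adjusted p of 0.0502 to 0.0507). Mt2, a metallothionein also induced by metals, went the other way, with 3.41 to 11.7 CPM (median 5.93) at P9 and 0 to 0.362 CPM (median 0.175) at P200.

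**Figure D5:**
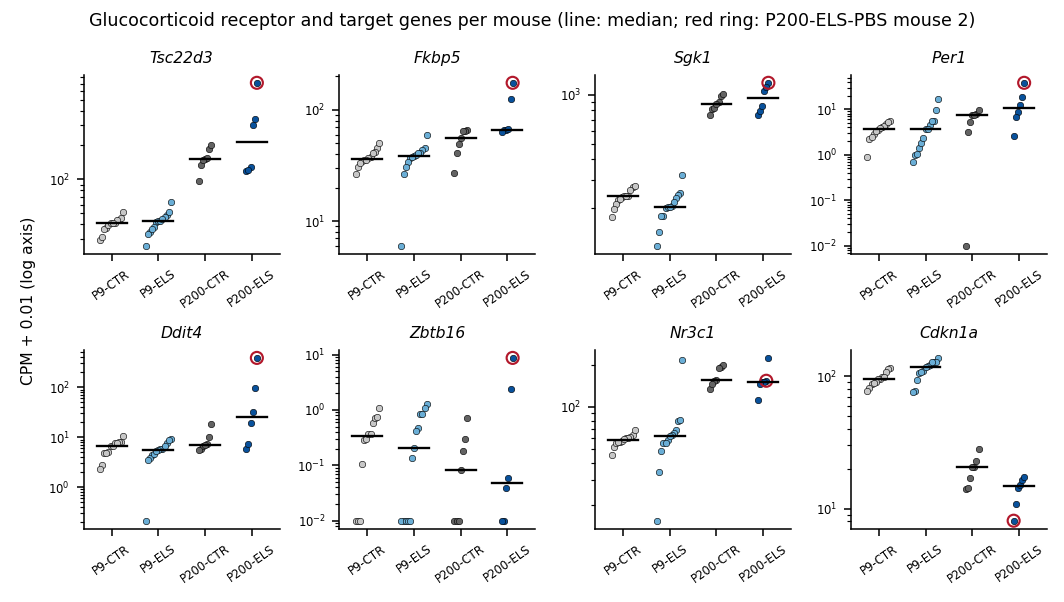
CPM of glucocorticoid-responsive genes in each ELS and CTR mouse. Points are mice in the 4 groups (13 P9 ELS, 6 P200 ELS PBS, 12 P9 CTR, 7 P200 CTR PBS), y axes are logarithmic (CPM plus 0.01), lines are medians, and P200 ELS mouse 2 (red ring) is the highest point for Ddit4 and Tsc22d3.

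Ddit4, which encodes the mTORC1 inhibitor REDD1 and is induced by glucocorticoids and by hypoxia, was 1 of the 5 genes whose age change differed between ELS and CTR mice. Ddit4 (ENSMUSG00000020108, chromosome 10, 59785491 to 59788492) was at 0.203 to 9.32 CPM in the P9 ELS mice. At P200 it was at 19.23 CPM in mouse 1, 388 in mouse 2, 97.3 in mouse 3, 5.71 in mouse 4, 7.23 in mouse 5 and 31.3 in mouse 6. Mice 4 and 5, from the same nest, lay within the range of the pups, and the other 4 lay above it. The log2 fold change in ELS mice was 4.07 ± 0.48 (SE), adjusted p = 6.76e-10, and 2.56 (adjusted p = 1.23e-06) without mouse 2. In CTR mice the mean was 6.26 ± 2.35 CPM (SD, n = 12) at P9 and 8.69 ± 4.38 CPM (SD, n = 7) at P200 (log2 fold change 0.48), and the difference was 3.60 ± 0.69 (SE), adjusted p = 0.0324. That difference did not pass with the nest as random effect in limma (2.45, adjusted p = 0.395), with counts summed per nest (4.12, adjusted p = 0.324) or with the compared groups fitted alone (3.56, adjusted p = 0.0863). It was 2.08 (adjusted p = 0.301) without P200 ELS mouse 2.

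The other 4 genes with a called difference were close to the limit of detection. Slc10a6, a transporter of sulphated steroids, had no count in 11 of the 13 ELS pups and was at 0, 3.27, 3.1, 0.482, 0 and 2.72 CPM in P200 mice 1 to 6 (difference 7.96 ± 1.61 (SE), adjusted p = 0.0352). Plet1, a placenta-expressed surface protein, had 1 count over the ELS pups and 112 over the P200 mice, 88 of them in mouse 2, 215.9-fold higher (counting interval 37.97 to 8604, difference 7.23 ± 1.35 (SE), adjusted p = 0.0324). Vwa5b2 was at 0 to 0.287 CPM (median 0) at P9 and 0 to 0.804 CPM (median 0.275) at P200 in ELS mice and had no count in any of the 7 P200 CTR mice, so that its fitted difference (8.48 ± 1.67 (SE), adjusted p = 0.0352) has no bound from the data. For Vwa5b2 the age change within ELS mice was not called (adjusted p = 0.0651), and was called without P9 mouse 2, 4 or 11 or P200 mouse 5 or 6 (adjusted p of 0.0322 to 0.0441). Gm29927, a predicted gene, had 1 count over the pups and 121 over the P200 ELS mice, 233.3-fold higher (counting interval 41.09 to 9289, difference 8.27 ± 1.70 (SE), adjusted p = 0.0379). None of these 4 differences passed in the fits that took the nests into account or in the fit of the compared groups alone. The number of genes with a called difference was 0 without ELS pup 2, without P200 ELS mouse 2 or without P200 CTR mouse 1, 2, 5 or 7, and 1 without P200 CTR mouse 4. It was 2 without ELS pup 3, 5 or 7, and 3 without ELS pup 1, 8, 9, 11 or 13, P200 ELS mouse 1, 3 or 4, or CTR pup 3.

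Immediate early genes respond within minutes to stimulation. Of 23, 8 were higher (34.8%, against 8.68% of all genes) and 1 lower (4.35%, against 17.5%). The number lower was 2 without P9 mouse 5, 6 or 7 or P200 CTR mouse 1, and 3 without P200 mouse 6. Egr1, a zinc finger factor of this class, was at 0 to 7.89 CPM (median 3.27) at P9 and 7.83 to 24.6 CPM (median 17.6) at P200 (log2 fold change 2.34 ± 0.34 (SE), adjusted p = 2.01e-07), and Nr4a1, an orphan nuclear receptor, rose by 2.16 ± 0.61. Hspa1a, the inducible heat shock protein, was at 0 to 2.87 CPM (median 0.476) at P9 and 0.605 to 20.0 CPM (median 4.89) at P200 (log2 fold change 3.33 ± 0.76). Nr4a2, a relative of Nr4a1, fell (-2.89 ± 0.87), and Fos was not called at 0 to 4.97 CPM (median 1.48) at P9 and 0.31 to 1.96 CPM (median 1.01) at P200 (-1.02 ± 0.63). Jun was called at 1.06 and stood at 0.95 without P9 mouse 5. These genes are also known to respond to the handling of live tissue, whose part was not tested.

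Of 21 circadian clock genes 8 rose (38.1%, against 8.68% of all genes) and 1 fell (4.76%, against 17.5%). None of them fell without P9 mouse 4 or without any 1 of P200 mice 1, 2, 3, 4 and 6. Per2, a repressor in the core loop, was at 0 to 3.67 CPM (median 1.39) at P9 and 1.47 to 5.17 CPM (median 2.82) at P200 and was not called (log2 fold change 1.21 ± 0.66). Hlf, a PAR bZIP output factor of the clock, was at 0 to 2.25 CPM (median 0.0626) at P9 and 6.04 to 19.8 CPM (median 10.9) at P200 (log2 fold change 4.36 ± 0.58 (SE), adjusted p = 1.81e-08), while Dbp, another such factor, was not called (-0.40 ± 0.54). Nr1d1, the repressor REV-ERB alpha, was called at 1.16 and lost the call without P200 mouse 5 (log2 fold change 1.06, adjusted p = 0.0583).

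Imprinted and fetal growth genes, many of which are switched off in several organs after birth, mostly fell. Of 17, 12 were lower (70.6%, against 17.5% of all genes) and 2 higher (11.8%, against 8.68%). Ndn, the paternally expressed necdin, had 2859 counts over the P9 mice and 2 over the P200 mice, 741.4-fold lower (counting interval 205.1 to 6125). Peg3, a paternally expressed zinc finger gene, was at 0 to 7.45 CPM (median 2.61) at P9 and 0 to 1.97 CPM (median 0) at P200, and Igf2bp3, a fetal RNA-binding protein, at 45.7 to 130.5 CPM (median 80.6) at P9 and 2.53 to 6.26 CPM (median 5.04) at P200. Igf2bp3 kept a few CPM in every P200 mouse, while Ndn and Peg3 had none in most. Cdkn1c, which is also imprinted but expressed from the maternal copy, rose, as given above.

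Markers of other brain cells fell between the ages in several lists. Of all genes, 17.5% were lower and 8.68% higher. In bulk RNA, fewer cells of a type and less RNA per cell cannot be told apart, and this holds for every list above. The summed level of the 12 neuronal markers was 45.7 to 209.5 CPM (median 134) at P9 and 4.24 to 9.82 CPM (median 7.78) at P200, and 10 fell. Stmn2, a neuronal stathmin, was at 8.42 to 55.6 CPM (median 18.6) at P9 and 0 to 0.259 CPM (median 0) at P200, and Tubb3, a neuronal tubulin, at 1.57 to 38.2 CPM (median 24.1) at P9 and 0 to 1.03 CPM (median 0) at P200. Dcx, a marker of immature neurons, had 1993 and 2 counts, 516.9-fold lower (counting interval 142.9 to 4271). Sst, the neuropeptide somatostatin, had 2511 counts at P9 and 1 at P200, 1302-fold lower (counting interval 233.5 to 51460).

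Of 9 astrocyte markers 8 fell and 1 rose. Gfap, the filament of astrocytes, was at 13.5 to 54.7 CPM (median 35.4) at P9 and 0 to 0.362 CPM (median 0) at P200, Aqp4, their water channel, at 0 to 17.4 CPM (median 10.3) at P9 and 0 to 0.879 CPM (median 0.145) at P200, and Fabp7, a fatty acid carrier of radial glia, at 23.1 to 204 CPM (median 82.2) at P9 and 0 to 0.465 CPM (median 0) at P200. Slc1a3, the glutamate transporter GLAST, rose from a range of 41.4 to 136 CPM at P9 to 313 to 452 CPM at P200, so that the summed level of the list was 154 to 440.1 CPM (median 344) at P9 and 316 to 456 CPM (median 397) at P200. Ncan, a proteoglycan of the perineuronal matrix, was at 21.0 to 114 CPM (median 66.3) at P9 and 0 to 0.451 CPM (median 0) at P200. Of 6 oligodendrocyte markers 2 rose and none fell, although myelin was removed on Percoll at P200 alone, with summed levels of 68.4 to 199 CPM (median 143) at P9 and 109.8 to 181 CPM (median 162) at P200. Pdgfra, a receptor of oligodendrocyte precursors, had 836 and 1 counts, 433.6-fold lower (counting interval 77.61 to 17150).

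Of 9 markers of border-associated macrophages 5 fell, and the summed level was 641 to 1205 CPM (median 905) at P9 and 136 to 285 CPM (median 228) at P200. Mrc1, the mannose receptor of these macrophages, was at 461 to 880.3 CPM (median 729) at P9 and 1.03 to 5.38 CPM (median 2.37) at P200 (log2 fold change -8.12 ± 0.37 (SE), adjusted p = 1.4e-23). Cd163, a haemoglobin scavenger, had 513 and 1 counts, 266.1-fold lower (counting interval 47.54 to 10530), and Lyve1, a hyaluronan receptor, 629 and 3 counts, 108.7-fold lower (counting interval 37.04 to 528.8). Pf4, a platelet factor these cells also make, was at 1.70 to 9.52 CPM (median 2.87) at P9 and 0.155 to 1.14 CPM (median 0.623) at P200. Mrc1 and Pf4 did not overlap between the ages, whereas Cd163 and Lyve1 did, since some pups had no count either. Mrc1, Cd163, Lyve1 and Pf4 made up little of the summed level at P200.

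Of 5 erythroid genes 4 fell, with summed levels of 0 to 53.13 CPM (median 3.00) at P9 and 0.356 to 3.21 CPM (median 1.25) at P200. Hbb-bs, a beta globin chain, had 1253 counts at P9 and 0 at P200, at least 216.6-fold lower. Globin genes have near-identical copies, which makes the split between them uncertain. Of 7 endothelial and mural markers 4 fell, among them Cldn5, a tight junction protein (322 and 0 counts, at least 55.67-fold lower), and Rgs5, a pericyte gene (1336 and 0 counts, at least 231.0-fold lower), while the summed level was 1.77 to 73.3 CPM (median 44.4) at P9 and 22.3 to 68.5 CPM (median 56.1) at P200. None of the 9 neutrophil markers passed the filter on low counts. Of 4 monocyte markers 2 fell and 1 rose, at summed levels of 4.18 to 10.9 CPM (median 7.18) and 3.55 to 11.0 CPM (median 6.72). The part of RNA from other cells in the decreases of the neuronal, astrocyte and imprinted genes was not tested.

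Some genes varied widely among mice of 1 age. Among the P200 mice, the genes with the largest spread on the log2 scale included Jak3, a kinase of cytokine receptors (5.99 to 42.3 CPM), Chpf2, a chondroitin polymerising factor (6.04 to 55.6 CPM), Ccl3 (8.29 to 125 CPM), Acvr1b, an activin receptor (5.56 to 55.8 CPM), and Ddit4. Among the P9 mice they included Cip2a, an inhibitor of a phosphatase (0 to 72.6 CPM), and Stam2, an endosomal sorting adaptor (0 to 72.5 CPM). These genes were picked for their spread, which is given as a description.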

How the data were processed

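RNA of sorted hippocampal microglia was sequenced on an Illumina NovaSeq from NEBNext Low Input libraries. The deposited values are counts: per the labels and the study's methods, the authors demultiplexed the reads (bcl2fastq 2.20), trimmed them (cutadapt 2.10), aligned them to GRCm39 with STAR and took as counts the uniquely mapped exonic reads per gene with HTSeq 0.11.0. The annotation release and the strand setting are not given in the sources used here, so that reads of overlapping or antisense genes cannot be told apart.

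Counts of all 50 mice were fitted with 1 mean for each of the 6 groups in edgeR 4.0.16 (R 4.3.3), with TMM scaling and the quasi-likelihood test. Genes that reached 1 CPM in more than 2 mice were kept (16696 of 53700). This filter spans all 50 mice, so a gene may be tested while nearly absent from the ELS mice. Genes were called at a Benjamini-Hochberg adjusted p under 0.05 and a log2 fold change beyond 1 in either direction. SE is the absolute log2 fold change divided by the root of F. Log2 CPM values used a prior count of 2, while log2 fold changes are those of the fit with edgeR's default prior. CPM printed are counts divided by the library total after that total was scaled by its TMM factor. Counting intervals are exact, at the 95% level, and cover counting error only. In data simulated for this comparison, 142 of 200 genes changed by a log2 fold change of 2 were recovered among 16696 genes, with 4 false calls. No 2 libraries of 1 age among the 19 ELS mice agreed within sampling noise. Mice whose names share the number before the point were read as littermates, and p-values treat all mice as independent.

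The gene lists and this comparison were chosen with earlier results of these data known. Genes were named by rule. From called genes, the rule took the 10 largest changes in each direction with no overlap of the ages and a mean log2 CPM from 1 upward. It also took the 5 largest in each direction with a mean from 7 upward. From each list it took key members and the tested members with the largest increase and the largest decrease. Genes with a called difference and the most variable genes completed it. A few genes that the rule names are not reported here. Lpl, Tlr3, Irak3, Sting1 and H2-Eb1 were added after their values were seen. Alternatives covered the tool, scaling, filter, threshold, samples, nests and depth, with limma 3.58.1 and DESeq2 1.42.0.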

Additional observations from a re-analysis of the deposited data

Results flagged for a closer look

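Of 188 named genes examined in the 6 P200 ELS mice, 30 had 1 mouse far from the other 5 by Dixon's test at the 95% level. Chance flags about 1 in 20 such groups if the values are normally distributed. That rate does not hold for the 8 of these genes with counts in 1 mouse and none in the other 5, which are flagged by construction. It need not hold for other flagged genes with few counts, such as Cxcl14 (0.161 CPM, next 0.0356). The 30 are therefore given as a description.

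P200 ELS mouse 2 was high for Ddit4 (388 CPM, next 97.3), Tsc22d3 (716 CPM, next 339), Nfkbia (224 CPM, next 137), Zbtb16 (8.68 CPM, next 2.39), Plet1 (3.13 CPM, next 0.724) and Igf1 (0.641 CPM, next 0.169). It alone had counts for Spag5, Sst, Cd163 and Pdgfra (0.0356 CPM each, 1 count) and for Mycn (0.0712 CPM).

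Mouse 1 was high for Siglech (1155 CPM, next 846), H2-T23 (88.0 CPM, next 60.8), Dnmt1 (26.0 CPM, next 15.5), Rps27a (178 CPM, next 129), Rpsa (86.6 CPM, next 57.5) and Ncan (0.451 CPM, next 0.0402). It also had the highest share of counts in ribosomal protein genes at P200, 1.21%.

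Mouse 5 was low for Ctsb (3573 CPM, next 4815) and high for Itgb8 (0.0958 CPM). Mouse 6 was high for Upk1b (505 CPM, next 394), low for Lgals1 (0.652 CPM, next 2.71) and the only P200 mouse with counts for Tubb3 (1.03 CPM). Mouse 3 was high for Cenpe (1.29 CPM, next 0.285), Itgal (1.5 CPM, next 0.0804), Fabp7 (0.465 CPM, next 0.121) and Stmn2 (0.259 CPM, next 0.0958). Mouse 4 was high for Peg3 (1.97 CPM, next 0.0479), Colec12 (0.161 CPM), Cxcl14 (0.161 CPM, next 0.0356) and Lyve1 (0.121 CPM).

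The age change differed between ELS and CTR mice, by the test of the difference itself in edgeR's quasi-likelihood fit, for Ddit4 (3.60 on the log2 scale), Slc10a6 (7.96), Plet1 (7.23), Vwa5b2 (8.48) and Gm29927 (8.27). None of the 5 was called with limma and the nest as random effect, with the counts of each nest summed, in the compared groups alone, or without P200 ELS mouse 2 or ELS pup 2. Apart from Ddit4 they rest on genes with no or almost no counts in at least 1 group.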

How the results depend on the processing

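The main limits are the threshold and the low counts. The number of genes higher at P200 (1449) was 2245 with no filter, 953 when a gene could have a count of 0 in at most 2 mice, 2863 at an absolute log2 fold change above 0.1 and 516 when tested against a log2 fold change of 1 (glmTreat). The number lower (2919) was 1412 with that filter on zeros and 1937 with glmTreat. With single mice left out the counts ranged from 1342 to 1536 higher and from 2753 to 2973 lower.

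The number of genes whose age change differed between ELS and CTR mice (5) was 29 with the likelihood-ratio test, 20 with DESeq2, 1 with the filter on zeros, 2 after thinning to the lowest total count, 2 without the 2 P9 ELS pups with the fewest genes, and 0 with glmTreat, with limma and the nest as random effect, with the counts of each nest summed and in a fit of the compared groups alone. It was 0 without those pups and P200 CTR mouse 1, an alternative chosen after seeing the data, as was leaving out CTR mice. With single mice left out it ranged from 0 to 6. In the main fit 1712 genes had an unadjusted p under 0.05 for this difference.

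Of 259 genes followed, 176 kept their direction and their side of the thresholds in all alternatives, and 29 changed side when 1 mouse was left out. Zbtb16 alone reversed, at -0.0612 (adjusted p = 0.971) in limma with the nest as random effect, where the cause was not tested. Scaling moved the median of all genes by at most 0.01 (log2). No paired analysis was possible because the 2 ages hold different mice of different nests and the replicate numbers follow the order of deposit.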

Other observations

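The direction of change differed by class of gene. Of 13085 protein-coding genes tested, 7.10% rose and 19.4% fell at P200 in ELS mice, and of 1924 long non-coding RNA genes 15.6% rose and 9.88% fell. Of 904 loci that the annotation marks as lacking experimental proof as genes (TEC), 14.3% rose and 3.54% fell, and of 382 processed pseudogenes 9.16% rose and 24.6% fell. These shares were not tested, and without a stated strand setting reads of overlapping genes may be split among classes.

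By chromosome the share of genes that fell ranged from 12.4% (chromosome 16) to 28.4% (X chromosome), and 5.37% of the 503 X-linked genes rose, against 8.68% of all genes. Among the tested genes, 403 had no count in any of the 6 P200 ELS mice, 28 of which had counts in every pup and fell. In the other direction 28 genes had no count in any pup, 2 of which had counts in every P200 mouse and rose. The numbers 403 and 28 cannot be set against each other, since 6 mice lack a count more easily than 13 pups do.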
